A study of Mus musculus with 8 samples.

Results

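The phagocyte NADPH oxidase genes described here are Cybb, Cyba, Ncf1, Ncf4, Rac1 and Rac2, 6 of the 15566 genes with a mouse identifier in the deposited count table. They were picked by gene symbol, and all 6 passed the filter on low counts that left 12938 genes for testing. Their polyadenylated RNA was counted in Ly6C-high monocytes, the classical monocytes of mouse bone marrow, sorted at steady state from untreated male C57BL/6 mice aged 8 weeks. The cells were sorted from femur and tibia as live CD45+ CD11b+ CD115+ Ly6C-high cells without CD117 or Ly6G. The 4 deficient libraries came from LysMDCommd10 mice, in which Commd10, a gene of the COMMD family of trafficking adaptors, is deleted by a Cre recombinase driven from the lysozyme M gene, which is active in monocytes, macrophages and neutrophils. The 4 control libraries came from weight-matched Commd10fl/fl littermates, whose Commd10 is floxed. The labels do not say whether a library holds 1 mouse or several, so every p-value rests on the spread between libraries, which may be technical. The running numbers in the sample titles are lower in every control than in any deficient library, so an effect of that order and of genotype cannot be told apart.

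The oxidase passes electrons from NADPH across a membrane to oxygen and so makes superoxide, the first product of the respiratory burst with which phagocytes attack microbes. Its catalytic core, flavocytochrome b558, pairs gp91phox, the product of Cybb (also called NOX2), with p22phox, the product of Cyba. In resting cells the other subunits wait in the cytosol, and the 6 genes described here do not cover all of them. On activation p47phox, the product of Ncf1, is phosphorylated and binds p22phox, p40phox, the product of Ncf4, binds a phosphoinositide of the phagosome membrane, and the GTPase Rac in its GTP-bound form joins the complex. Rac2 is the Rac of blood cells, while Rac1 is present in most cell types. Human mutations in CYBB, CYBA, NCF1 or NCF4 cause forms of chronic granulomatous disease.

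Library totals ran from 14231121 to 31040255 counts for the controls, against 17099454 to 30722262 for the deficient group. The 6 genes took 0.510% to 0.535% of all counts in a control library and 0.482% to 0.521% in a deficient one, ranges that overlap. As a check of the labels, Cre had 0 counts in every control and 499 to 987 in the deficient libraries, Commd10 fell to 73.0% of the control level (edgeR adjusted p = 0.0292), and Lyz2, the gene that carries the Cre, fell to 49.3% (edgeR adjusted p = 2.51e-06). The Commd10 count covers the whole gene, and the labels do not say which exons are deleted. Ly6c2, which encodes the Ly6C of the sort, was at 1742 to 1800.1 CPM in control and 1827 to 2091 CPM in deficient libraries, where CPM is a count scaled to a common library size with TMM factors. Ly6g, the neutrophil antigen that the gate leaves out, had 0 to 13 counts per library.

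All 6 subunit transcripts were abundant, which shows first in levels per length. The levels of this paragraph are CPM divided by the length of a gene's merged exons in kilobases. In the controls, Cyba had the highest level, 498 ± 13.4 CPM per kilobase (SD, n = 4), and Cybb followed at 424 ± 14.7. Rac2, the blood-cell GTPase, stood at 249 ± 10.1 CPM per kilobase (SD, n = 4). Ncf1 had 143 ± 16.4, Rac1 140.2 ± 1.01 and Ncf4 138 ± 14.3 CPM per kilobase (SD, n = 4 each). Each of the first 3 genes was separated from the next in the order in all 8 libraries, with no overlap within either group. Ncf1, Rac1 and Ncf4 could not be ordered, since the ranges of neighbours overlapped in the controls and in the deficient libraries. Within each of the 4 deficient libraries, however, Ncf4 stood above Rac1, while Rac1 stood above Ncf4 in 3 of the 4 controls. Among the 12920 tested genes with a length, Cyba ranked 59 and Cybb 71 in the controls, Rac2 ranked 154, and the other 3 ranked between 306 and 315. With the longest transcript in place of the merged exons, the order was still Cyba, Cybb and Rac2, but Ncf4 had 191 CPM per kilobase against 182 for Ncf1 and 152 for Rac1.

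**Figure D1:**
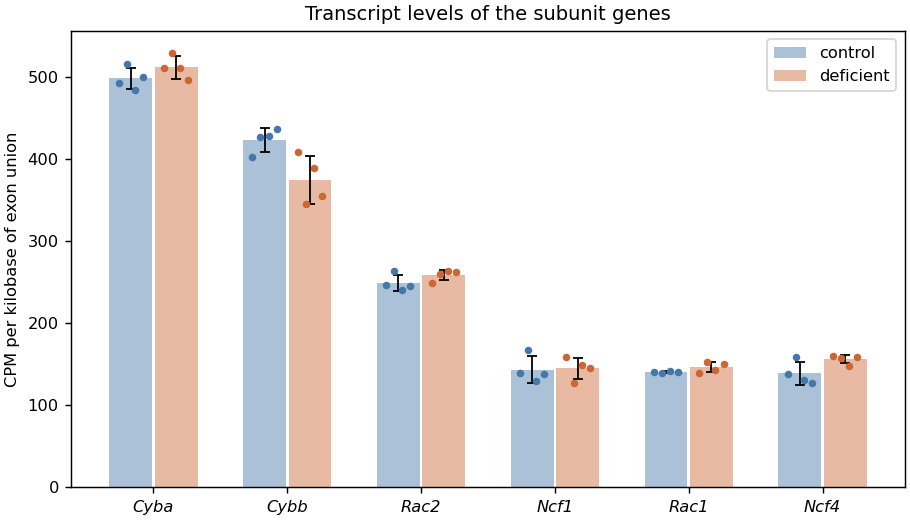
Bars give the mean CPM per kilobase of merged exons for each subunit gene in 4 control and 4 deficient libraries, with SD as error bars and a point for each library. Cyba and Cybb stand highest, Rac2 follows, and Ncf1, Rac1 and Ncf4 lie together near 140.2 in the controls.

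The comparison of deficient with control monocytes asked whether the RNA of these subunits differs between the genotypes. Only the deficient libraries held Cre counts, and Lyz2, the gene that carries the Cre, was lower in them. Effects of Cre, of lower Lyz2 and of Commd10 deletion therefore cannot be told apart. None of the 6 passed an adjusted p under 0.05 (edgeR quasi-likelihood test, Benjamini-Hochberg over 12938 genes), where 0.873% of all tested genes did, 0.356% higher and 0.518% lower in the deficient libraries. That background of 113 genes changed with the library left out. Without control 1, 3 or 4 or deficient 2 or 4, 1 to 29 genes were called, and 298 to 522 without control 2 or deficient 1 or 3. Such fits also have fewer libraries, and the cause of these shifts was not tested. DESeq2 called 0 of the 6 subunit genes, where it called 7.54% of the 11182 genes to which it gave an adjusted p. At an unadjusted p under 0.05 there were 2, Cybb and Ncf4, against 24% of all tested genes. In 0 of the 6 genes did the 4 deficient values lie wholly to one side of the 4 control values, as they did in 12.6% of tested genes. Cybb was lower and the other 5 were higher in the deficient libraries. The median log2 fold change of the 6 was 0.05, against 0.00 over all tested genes. The intervals were narrow: over the 6 genes the 95% limits of the fit ran from 81.5% of the control level, the lower limit of Cybb, to 124% of it, the upper limit of Ncf4.

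**Figure D2:**
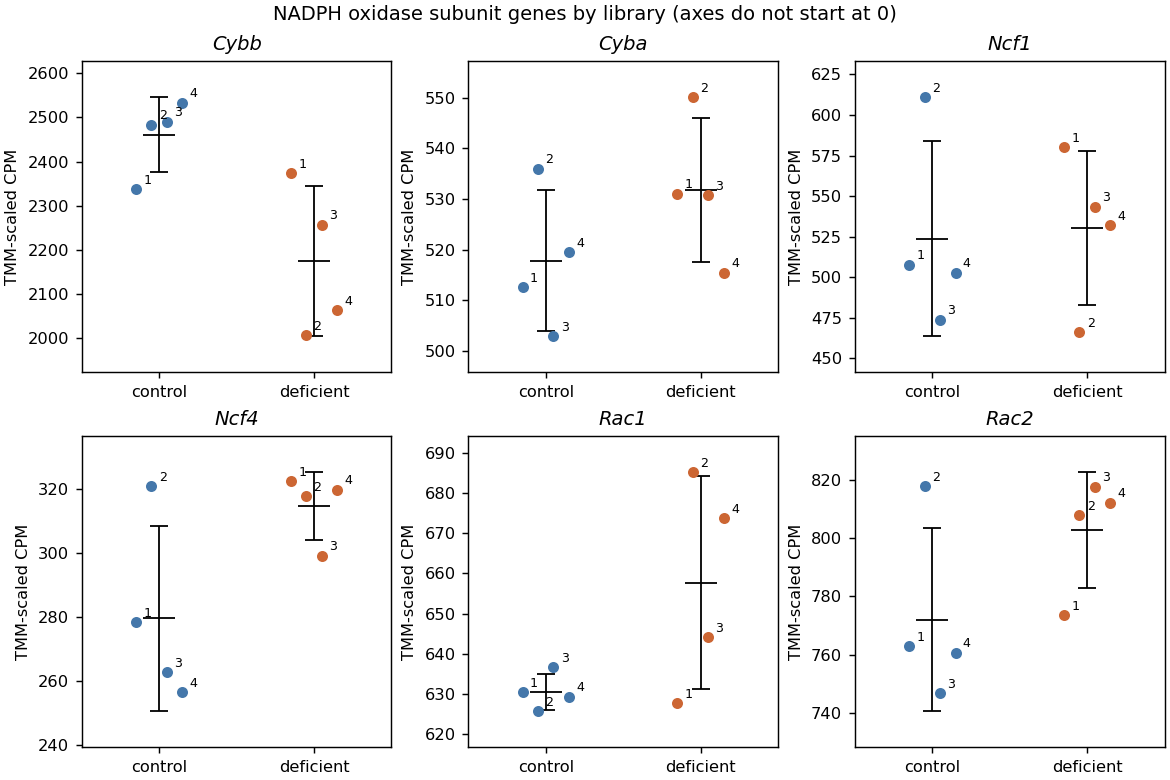
Each panel shows the TMM-scaled CPM of 1 subunit gene in the 4 control and 4 deficient libraries, numbered by replicate, with mean and SD in black and an axis that does not start at 0. The groups overlap in every panel, with Cybb lowest in deficient 2 and 4 and Ncf4 as high in control 2 as in the deficient libraries.

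Of the membrane subunits, Cybb, which encodes the electron-carrying gp91phox, had 2337, 2483, 2490 and 2533 CPM in control 1 to 4, against 2373, 2007, 2258 and 2064 CPM in deficient 1 to 4. Deficient 2 and 4 were the lowest, and deficient 1 alone lay within the control range, just above control 1. The mean was 2461 ± 85.4 CPM in the controls and 2175 ± 170 CPM in the deficient libraries (SD, n = 4 each), or 88.4% of the control level. The log2 fold change was -0.18 (SE 0.05, 95% interval -0.30 to -0.06) with an edgeR adjusted p of 0.0969. The exact permutation p was 0.0571, two-sided, where the smallest that 4 against 4 allows is 0.0286. Cybb passed only without deficient 1 (log2 fold change -0.22, edgeR adjusted p = 0.0413), and its adjusted p over the 8 fits that left out 1 library reached 0.262. With DESeq2 the adjusted p was 0.0502.

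Cyba, whose product p22phox anchors and stabilizes gp91phox, had 513, 536, 503 and 519 CPM in control 1 to 4, against 531, 550.1, 531 and 515 CPM in deficient 1 to 4. The groups overlapped through most of their range. Means were 518 ± 13.9 and 532 ± 14.2 CPM (SD, n = 4 each), a log2 fold change of 0.04 (SE 0.04, edgeR adjusted p = 0.568). The 95% interval put the deficient level between 96.9% and 109% of the control level. A gene model on the other strand, Gm20388, spans the whole of Cyba and was not itself analysed here. The sources used here do not state whether counting used strand, and without strand the reads of such a pair cannot be told apart.

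The promoters of this pair, from RefSeq on GRCm38.p6, are shown because the products of Cybb and Cyba form 1 heterodimer. Neither gene passed the threshold, and the interval of Cyba included no difference. A link between these sequences and the RNA values was not tested. Each sequence runs 5′ to 3′ from 250 bases before the annotated start to 50 bases after it. Cybb lies on the minus strand at chrX:9469275-9469574 and Cyba on the minus strand at chr8:122432891-122433190. The RefSeq start of Cybb lies inside the longer GENCODE M21 gene model, which begins further upstream. Capitals mark matches on either strand to GAGGAA (a core bound by PU.1), to the interferon response element (ISRE below: GAAA, any 2 bases, GAAA; bound by IRF factors) and to CCAAT.
Cybb: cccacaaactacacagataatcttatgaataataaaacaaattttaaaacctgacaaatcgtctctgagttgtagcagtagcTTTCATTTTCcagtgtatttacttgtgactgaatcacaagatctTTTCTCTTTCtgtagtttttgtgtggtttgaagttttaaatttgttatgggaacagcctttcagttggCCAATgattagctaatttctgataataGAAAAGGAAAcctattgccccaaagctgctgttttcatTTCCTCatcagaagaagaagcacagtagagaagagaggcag
Cyba: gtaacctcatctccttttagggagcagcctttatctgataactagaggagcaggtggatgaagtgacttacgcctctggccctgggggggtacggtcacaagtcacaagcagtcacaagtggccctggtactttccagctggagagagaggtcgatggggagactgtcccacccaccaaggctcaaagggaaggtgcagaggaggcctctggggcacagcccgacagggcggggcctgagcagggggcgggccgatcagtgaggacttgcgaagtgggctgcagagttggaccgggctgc
PU.1, IRF1 and IRF8 are known to act on the human CYBB promoter. The Cybb window held 3 matches to ISRE, 1 to GAGGAA and 1 to CCAAT, and these did not overlap one another. The Cyba window held 0 matches to each of the 3 motifs. Of 32544 distinct promoter sequences of the same length, 28.1% held GAGGAA, 3.45% held ISRE and 37.4% held CCAAT. At least 3 matches to ISRE, a count made after those of Cybb were seen, occurred in 5 of these promoters, Cybb included. The window of Ncf1 held 1 match to ISRE and 0 to the other motifs, and the other 3 genes had no entry matched by symbol.

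The Cybb to Cyba ratio within a library does not depend on how libraries are scaled. As a ratio of counts it was 4.56, 4.63, 4.95 and 4.88 in control 1 to 4, against 4.47, 3.65, 4.25 and 4.004 in deficient 1 to 4. All 4 deficient ratios lay below all 4 control ratios. The mean ratio was 4.75 ± 0.188 in the controls and 4.09 ± 0.353 in the deficient libraries (SD, n = 4 each), or 86.1% of the control value. The log2 difference was -0.22, with an exact permutation p of 0.0286 (two-sided), the lowest value possible with 4 libraries a group. The adjusted p was 0.0857 over the 3 ratios tested by exact permutation. An adjusted p under 0.05 was out of reach unless another ratio also stood at the lowest value, so 0.0857 cannot count as a measured miss. In each of the 8 tests with 1 library left out, the groups still lay fully apart. The adjusted exact permutation p nevertheless ran from 0.0429, without deficient 3, to 0.171. The exact test has few steps, and the adjustment draws on the other ratios. Without deficient 1 the log2 difference was -0.26 with an adjusted p of 0.0857, against -0.24 without deficient 3. The range of p therefore does not measure how far the difference depends on a library. Per kilobase of merged exons the ratio was 0.851 in the controls and 0.732 in the deficient libraries.

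Of the cytosolic subunits, Ncf1, whose product p47phox organizes assembly, had 508, 611, 474 and 503 CPM in control 1 to 4, against 580.1, 466, 544 and 532 CPM in deficient 1 to 4. Control 2 held the highest value and deficient 2 the lowest of all 8. Means were 524 ± 60.0 and 530.5 ± 47.5 CPM (SD, n = 4 each), a log2 fold change of 0.02 (SE 0.09, edgeR adjusted p = 0.921). The 95% interval, 88.7% to 116% of the control level, was the widest of the 6. The sign of this difference turned without control 3 (log2 fold change -0.03), control 4 (-0.0018) or deficient 1 (-0.03). The 3′ end of Ncf1 overlaps Gtf2ird2 on the other strand, which had 3326 counts summed over all libraries.

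Ncf4, which encodes the phosphoinositide-binding p40phox, had 278, 321, 263 and 256 CPM in control 1 to 4, against 322, 318, 299 and 319.8 CPM in deficient 1 to 4. Control 2 lay among the deficient libraries and the other 3 controls lay below all of them. Means were 279.6 ± 29.0 and 315 ± 10.5 CPM (SD, n = 4 each), the deficient level being 113% of the control level. The log2 fold change was 0.17 (SE 0.06, 95% interval 0.03 to 0.31, edgeR adjusted p = 0.138; exact permutation p = 0.114, two-sided). Without control 2 it was 0.24 (edgeR adjusted p = 0.0362), the only fit with 1 library left out in which Ncf4 passed. Over those 8 fits its adjusted p reached 0.340.

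The Ncf1 to Ncf4 ratio of counts was 1.82, 1.90, 1.80 and 1.96 in control 1 to 4, against 1.80, 1.47, 1.82 and 1.66 in deficient 1 to 4. Deficient 2 and 4 had the lowest ratios, while deficient 1 and 3 lay at the lower edge of the controls. Means were 1.87 ± 0.0727 and 1.69 ± 0.161 (SD, n = 4 each; log2 difference -0.16, exact permutation p = 0.0571, two-sided, adjusted p = 0.0857). With 1 library left out, the adjusted exact permutation p ran from 0.0429, again without deficient 3, to 0.257. Deficient 2 and 4, the libraries with the lowest Cybb to Cyba ratio, were thus also lowest here.

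**Figure D3:**
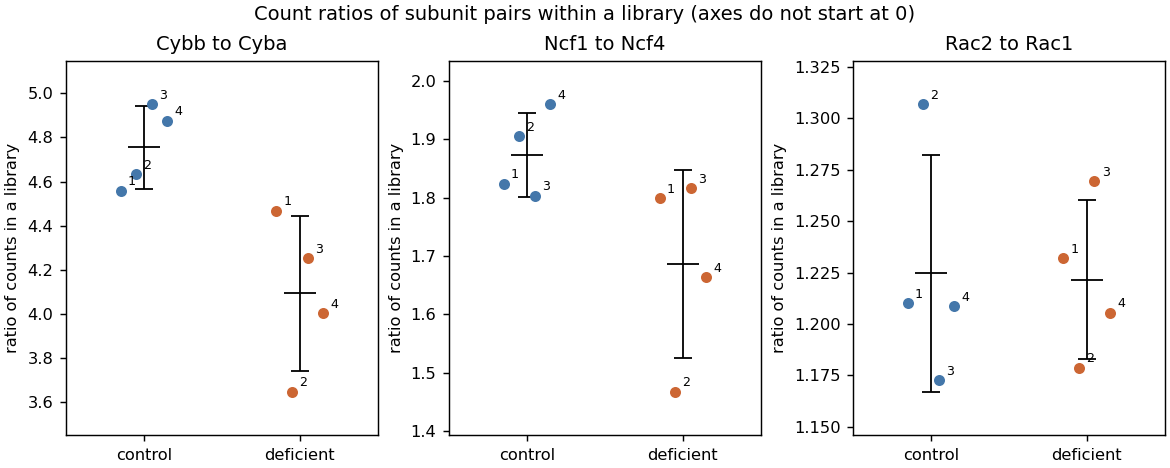
Each panel shows the ratio of raw counts of 2 subunit genes within a library, for 4 control and 4 deficient libraries numbered by replicate, with mean and SD in black and an axis that does not start at 0. The Cybb to Cyba ratios of the deficient libraries, 3.65 to 4.47, all lie below those of the controls, 4.56 to 4.95, while the Rac2 to Rac1 ratios overlap.

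Of the GTPases, Rac2 had 763, 818, 747 and 761 CPM in control 1 to 4, against 773, 808, 818 and 812 CPM in deficient 1 to 4. Control 2 was level with the highest deficient library. Means were 772 ± 31.4 and 803 ± 19.9 CPM (SD, n = 4 each), a log2 fold change of 0.06 (SE 0.04, edgeR adjusted p = 0.420). Rac1 had 630.4, 626, 637 and 629 CPM in control 1 to 4, an SD of 4.54 CPM and the tightest group of the 6 genes, and 628, 685, 644 and 674 CPM in deficient 1 to 4. Deficient 2 and 4, lowest in Cybb, were highest in Rac1. The Rac1 means were 631 and 658 CPM (log2 fold change 0.06, SE 0.04, edgeR adjusted p = 0.363), and its 95% interval ran from 98.3% to 111% of the control level. The 3′ end of Rac1 overlaps Daglb on the other strand, which had 14529 counts summed over all libraries.

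Rac1 and Rac2 encode close paralogs, so reads could be confused between them if their transcripts shared long stretches. Over the 576 coding bases of each, 77.1% were identical. The longest exact run shared by their longest transcripts was 29 bases and began at the start codon of both; it is shown to set it against the 75 cycles of a read.
Rac1 and Rac2 shared run: atgcaggccatcaagtgtgtggtggtggg
Every 75-base window of the coding sequence differed between the GTPase genes at 6 to 32 positions. For all 6 subunit genes, 0 of the 75-base windows of the longest coding transcript occurred, in the same orientation, in an annotated transcript of another gene. Reverse complements were not searched. The search therefore does not cover the genes named above that overlap Cyba, Ncf1 and Rac1 on the other strand. The Rac2 to Rac1 ratio of counts was 1.22 ± 0.0575 in the controls and 1.22 ± 0.0386 in the deficient libraries (SD, n = 4 each; exact permutation p = 0.914, two-sided; adjusted p = 0.914). Per kilobase, Rac2 stood at 1.77 times Rac1 in both groups.

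The subunit genes lie on 4 chromosomes. On GRCm38, by GENCODE M21, Cybb (ENSMUSG00000015340) is at chromosome X, 9435252 to 9487771, minus strand, and Cyba (ENSMUSG00000006519) at chromosome 8, 122424776 to 122432930, minus strand. Ncf1 (ENSMUSG00000015950) and Rac1 (ENSMUSG00000001847) are both on the minus strand of chromosome 5, at 134220053 to 134229625 and 143503634 to 143528036. Ncf4 (ENSMUSG00000071715) is at chromosome 15, 78244801 to 78262580, plus strand. Rac2 (ENSMUSG00000033220) lies on the same chromosome at 78559167 to 78572783, minus strand, with 296586 bases between the pair. All are protein-coding genes.

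Among 6 genes whose products work beside the oxidase, 1 rose and 0 fell, where 0.356% of all tested genes rose and 0.518% fell. The partner gene that rose was Cybc1 (ENSMUSG00000039294, listed as BC017643), which encodes Eros, the chaperone that the gp91phox protein needs to reach normal levels. Cybc1 had 151.2, 153.5, 157.3 and 151.0 CPM in control 1 to 4, against 171.6, 173, 176 and 182 CPM in deficient 1 to 4. All 4 deficient values lay above all 4 control values, and the groups lay apart in 12.6% of all tested genes. Its log2 fold change was 0.20 (SE 0.04, edgeR adjusted p = 0.0450; exact permutation p = 0.0286, two-sided), 115% of the control level. Cybc1 fell short of the threshold when 1 library was left out: without control 1 its adjusted p was 0.0840, and 0.124 and 0.153 without control 3 and control 4. Leaving out deficient 2 gave 0.0582, and leaving out deficient 4 gave 0.173. With DESeq2, which called 7.54% of all genes, the adjusted p was 4.29e-04. Prdx6, a peroxiredoxin that binds the oxidase and supports its activity, had a log2 fold change of 0.15 (edgeR adjusted p = 0.122). Hvcn1, the voltage-gated proton channel that balances the charge the oxidase moves, was low, at 13.9 and 12.2 CPM in control and deficient libraries (log2 fold change -0.18, edgeR adjusted p = 0.305). S100a8 and S100a9, which carry arachidonic acid to the oxidase, had 0.58 and 0.40 with adjusted p of 0.258 and 0.335, and Rap1a, a GTPase that copurifies with the flavocytochrome, had -0.04.

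**Figure D4:**
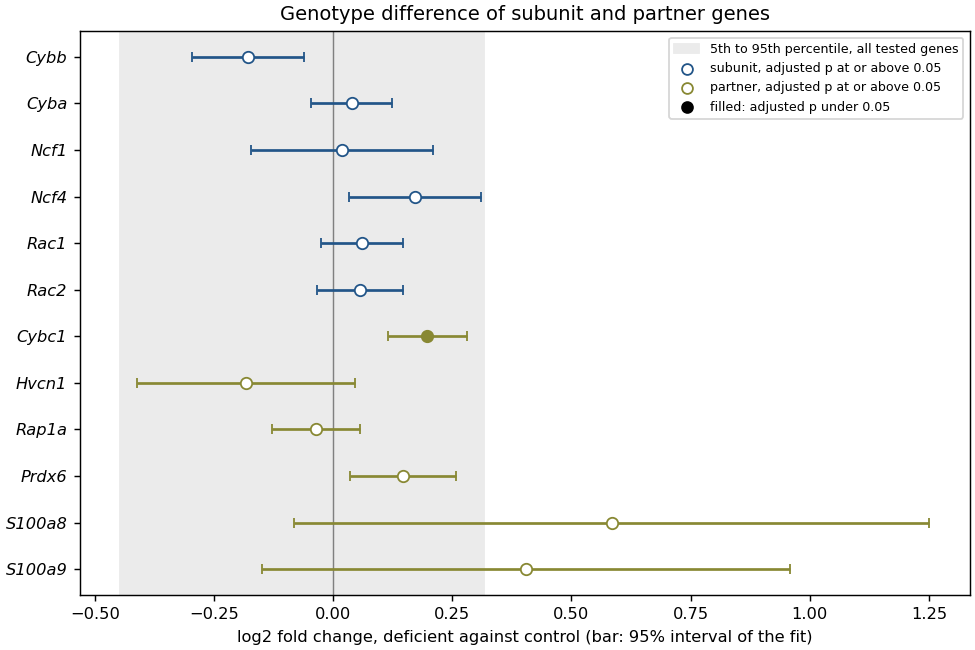
Points give the log2 fold change of the 6 subunit genes and 6 partner genes, deficient against control, with the 95% interval of the fit, over the 5th to 95th percentile of all tested genes (-0.45 to 0.32) in grey. Cybc1 is the only filled point, and the intervals of Cybb and Ncf4 lie on opposite sides of 0.

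Of 10 genes listed for NOX and DUOX enzymes, their cofactors and Rac3, 2 were tested: Noxo1, an organizer of another oxidase, at 0.618 CPM in the controls, and Rac3, a GTPase, at 0.586 CPM. Neither passed (edgeR adjusted p = 0.369 and 0.559). The NOX and DUOX enzymes and the remaining cofactors were not analysed here.

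Rac is loaded with GTP by exchange factors and unloaded by GTPase-activating proteins. Of 11 tested Rac activators (guanine nucleotide exchange factors and their ELMO partners) 0 passed with edgeR, 4 had an unadjusted p under 0.05 (24% of all tested genes did), and DESeq2 called 1, Vav1, against 7.54% of all genes. Their median log2 fold change was -0.07, with 9 lower and 2 higher. Tiam2 (log2 fold change -0.25, edgeR adjusted p = 0.103) and Vav1 (0.12, adjusted p = 0.114) came nearest. Of 8 genes that restrain Rac, 1 fell (0.518% of all tested genes did): Arhgap15, a GTPase-activating protein that switches Rac off. Controls held 153 to 159 CPM of Arhgap15 and deficient libraries 120.5 to 142.5, with no overlap (log2 fold change -0.26, SE 0.05, edgeR adjusted p = 0.0459). The groups did not overlap in 12.6% of all tested genes. Bcr, another such protein, had 0.18 (edgeR adjusted p = 0.115). Arhgap15 did not pass when control 1, 3 or 4 or deficient 2 or 4 was left out (edgeR adjusted p 0.0782 to 0.179).

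Of 15 tested kinases and lipid enzymes that signal to the oxidase, 0 passed with edgeR. An unadjusted p under 0.05 was reached by 4, against 24% of all tested genes, and the median log2 fold change of the list was 0.05. Nearest were 2 parts of phosphoinositide 3-kinase gamma: Pik3r5, its regulatory subunit (log2 fold change 0.20, SE 0.04, edgeR adjusted p = 0.0552), and Pik3cg, its catalytic subunit (-0.17, SE 0.04, edgeR adjusted p = 0.0727). In both genes the 4 deficient values lay apart from the controls, above in Pik3r5 and below in Pik3cg. The groups lay apart in 2 of these 15 genes and in 12.6% of all tested genes. DESeq2 called both, among 7.54% of all genes, at adjusted p of 0.00590 and 0.0148.

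Genes that supply NADPH, the oxidase's electron donor, had 0 of 11 past the threshold with edgeR or DESeq2. Of the 11, 3 had an unadjusted p under 0.05 (24% of all tested genes did). In the deficient libraries 8 were higher, and the median log2 fold change of the 11 was 0.05. G6pdx, which starts the pentose phosphate pathway, ranged from 509 to 517 CPM in controls and from 534 to 582 CPM with Commd10 deleted (log2 fold change 0.11, edgeR adjusted p = 0.130), and Pgd, the next NADPH-producing step, had 0.13 (adjusted p = 0.151). Of 18 tested antioxidant genes, 1 rose (0.356% of all tested genes did), 13 were higher and the median was 0.10. Over all tested genes, 6500 of 12938 were higher. The antioxidant gene that rose was Hmox1, heme oxygenase 1, with a control range of 107 to 115 CPM and a deficient range of 119.6 to 154 CPM (log2 fold change 0.34, SE 0.07, edgeR adjusted p = 0.0465). Sod2, which turns superoxide of mitochondria into hydrogen peroxide, had 0.16 (SE 0.05, edgeR adjusted p = 0.0827). Hmox1 missed the threshold in the fits without control 1, 3 or 4, and in those without deficient 2 or 4 (edgeR adjusted p 0.0820 to 0.173). DESeq2, which called 7.54% of all genes, called 3 of these 18, Hmox1, Sod2 and Txnrd1.

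Of 12 tested transcription factors known to act on oxidase genes in human or mouse cells, 1 fell (0.518% of all tested genes did). Of the 12, 6 were lower and 6 higher, with a median of -0.01. Satb1, a chromatin organizer that binds the CYBB locus in human cells, ranged from 15.6 to 17.4 CPM in control and from 12.1 to 13.1 CPM in deficient libraries (log2 fold change -0.41, SE 0.07, edgeR adjusted p = 0.0292). Satb1 did not pass in the fits that left out control 1, 3 or 4 or deficient 4 (edgeR adjusted p 0.0646 to 0.138). DESeq2, which called 7.54% of all genes, called 2 of these 12, Satb1 and Cebpb. Irf2 was at -0.19 (SE 0.06, edgeR adjusted p = 0.0969). Irf8, which drives monocyte fate and acts on the human CYBB promoter, ranged from 531 to 575 CPM in control and from 439 to 544 CPM in deficient libraries (log2 fold change -0.18, edgeR adjusted p = 0.115). Spi1, which encodes PU.1, had 0.09 (edgeR adjusted p = 0.221). Irf8 and Spi1 are named because the motifs above are theirs, a choice made after their values were seen. Irf1, whose product is also named above for the human CYBB promoter, was among the 12 tested and passed with neither edgeR nor DESeq2.

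**Figure D5:**
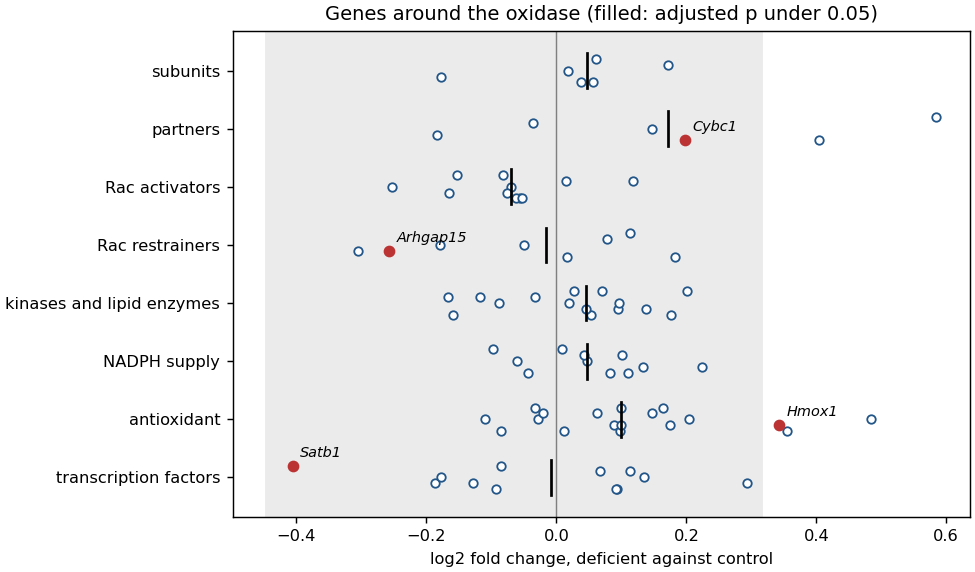
Each point is the log2 fold change of 1 tested gene, deficient against control, by list, with black bars at list medians and the 5th to 95th percentile of all tested genes in grey. The 4 filled points past an adjusted p of 0.05 are Cybc1, Arhgap15, Hmox1 and Satb1, and none of the 6 subunit genes plotted is among them.

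Markers of other cells were set beside these values, since neutrophils and their precursors also carry the oxidase and since, in a bulk sample, fewer cells of a type and less RNA per cell cannot be told apart. Summed over 8 neutrophil precursor genes, control libraries reached 1521 to 2049 CPM and deficient ones 1825 to 3150 CPM, highest in deficient 2 and 4, which were also lowest in Cybb. All 7 tested genes of that list were higher (median 0.75), and 0 passed. Mature neutrophil markers summed to 1014 to 1125 and 1004 to 1106 CPM, with 8 of 11 tested higher (median 0.15). Classical monocyte markers summed to 20357 to 21181 and 20155 to 20937 CPM, with 6 of 10 higher (median 0.07). Ly6C-low monocyte markers summed to 569 to 673 and 461 to 619 CPM (6 of 7 lower, median -0.60), and dendritic cell markers to 245 to 495 and 180.1 to 364 CPM (6 of 7 lower, median -0.52). B cell markers summed to 440.3 to 594 and 398 to 458 CPM (6 of 6 lower, median -0.54) and erythroid markers to 359 to 621 and 219 to 416 CPM (5 of 5 tested lower, median -0.73). In each of the 7 marker lists 0 genes passed the edgeR threshold. An unadjusted p under 0.05 (24% of all tested genes) was reached by 6 of 7 neutrophil precursor, 4 of 11 mature neutrophil and 6 of 10 classical monocyte genes. The same held for 3 of 7 Ly6C-low monocyte, 3 of 7 dendritic cell, 3 of 6 B cell and 4 of 5 erythroid genes. DESeq2, which called 7.54% of all genes, called 3 of the neutrophil precursor genes, Elane, Mpo and Ms4a3. In the other lists it called 0 to 3. Of all these markers, 0 were at 0 in all libraries. Deficient 2 and 4 were also the lowest of all 8 libraries in the Ly6C-low monocyte, dendritic cell and erythroid sums. The part of these cells in the oxidase values was not tested.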

How the data were processed

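The deposited table holds raw counts of reads per gene, per the file headers, in 8 columns matched to samples by title; the 8 columns of normalized values beside them were not used. The submitters' processing notes name GRCm38, HTSeq 0.12.4, STAR 2.7.3a, DESeq2 and cutadapt, with no role given for any. The labels' protocols describe poly(A) libraries and single reads on a 75-cycle kit and mention no molecular identifiers, so floors and intervals on counts cover counting error only.

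The Cre row was left out of library totals and tests. Low counts were removed by filterByExpr (at least 10 counts, total at least 15) and libraries scaled with TMM. The test was edgeR's robust quasi-likelihood test (edgeR 4.0.16 in R 4.3.3) of genotype alone, p-values being adjusted over all 12938 tested genes (Benjamini-Hochberg, two-sided, threshold 0.05). Standard errors were derived from the F statistic. An exact permutation test over all 70 assignments was run for ratios and single genes. Alternatives were DESeq2 1.42.0, other scalings and filters, a fit without robust shrinkage and each library left out. Lengths and positions came from GENCODE M21. 1 list symbol, Cybc1, was matched through its identifier.

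The members and lists were chosen with earlier results of these data known. Named genes are the 6 members, Commd10 and Lyz2, and of each list up to 4 genes past the threshold or, failing 2 such genes, its 2 lowest in p. The other partner genes, Irf1, Irf8, Spi1, Ly6c2, Ly6g and genes that DESeq2 called are named as well.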

Additional observations from a re-analysis of the deposited data

How the results depend on the processing

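The count of all genes past the threshold moved from 113 to 843 with DESeq2 and to 41 without robust shrinkage; it ranged from 1 to 522 with 1 library left out, and was 1 when the shallowest control and deficient libraries were dropped together, a setting added with the data in view. The cause was not tested. Of the 6 oxidase genes, 0 passed under every scaling, filter and tool tried; with 1 library left out the count was 0 to 1. Over those fits the log2 fold change ranged from -0.22 to -0.14 for Cybb, 0.13 to 0.24 for Ncf4 and -0.030 to 0.10 for Ncf1; without the shallowest libraries Ncf1 was at -0.040. The log2 difference ranged from -0.26 to -0.17 for the Cybb to Cyba ratio, -0.19 to -0.090 for Ncf1 to Ncf4 and -0.023 to 0.029 for Rac2 to Rac1. The first and second of these reached an adjusted exact permutation p of 0.0429 without deficient 3. With so few libraries the exact p moves in coarse steps that need not follow the size of the difference. Outside the subunits, Cybc1, Arhgap15 and Hmox1 lost their calls without robust shrinkage (adjusted p 0.0503, 0.0555 and 0.0563). These 3 and Satb1 also lost them without the shallowest libraries. The median of all genes stayed within 0.01 of 0 on the log2 scale under each setting. No paired analysis was possible because the labels give the libraries no shared replicate numbers. Depth was not limiting for the subunits, which had 3740 or more counts in every library; it limits Noxo1 and Rac3.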

Other observations

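The genes whose log2 CPM followed each subunit most closely over the 8 libraries were read off for 8150 named genes with a mean of at least 10 CPM. These are descriptions over libraries of both genotypes, which share depth and scaling, and the highest of many correlations are high by selection. For Cybb they were Brpf1, Smarca2 and Mcur1 (Pearson r = 0.990, 0.989 and 0.985), with log2 fold changes of -0.10, -0.24 and -0.21, none past the threshold. For Cyba they were Ints9, Higd1a and Atp6v0c (r = 0.943, 0.915 and 0.915). For Ncf1 they were Mindy2, Ndst1 and Itch (r = 0.974, 0.972 and 0.969), and for Ncf4 Sdcbp, Tmem268 and Treml2 (r = 0.985, 0.983 and 0.977). For Rac1 they were Fam129b, Tes and Pcbp1 (r = 0.994, 0.989 and 0.982), and for Rac2 Api5, Tle3 and Utp23 (r = 0.985, 0.967 and 0.958). No gene appears for more than 1 subunit.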
